A study of Mus musculus with 28 samples.

Results

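The 53 genes described here are components of the Wnt signalling pathway: 14 ligands, 2 genes of ligand secretion, 10 Frizzled receptors, 2 co-receptors, 6 genes of the R-spondin axis, 8 secreted inhibitors, 4 genes of beta-catenin and its destruction complex, 4 TCF/LEF transcription factors and 3 feedback targets. They were taken as a list of gene symbols, with no cutoff on a measured value. The list was chosen with earlier results of these data known. All 53 were found among the 55536 gene identifiers of the count files. In 52 of them at least 1 read was counted, and 47 held enough reads to be tested. The libraries are bulk RNA-seq of mouse interfollicular epidermis (IFE), which lines skin outside the follicles, and the series set out to compare lineages of basal cells, the proliferating layer of this tissue. There were 4 mouse lines, each with a tamoxifen-inducible Cre recombinase named for Slc1a3, Aspm, Dlx1 or K14 (keratin 14) and a tdTomato reporter at the Rosa locus, with the genotype otherwise labelled wild type. All animals received tamoxifen at 100 ug/ml for 5 days, on postnatal days 30 to 34, followed by 2 weeks without it, and were sampled at postnatal day 49, when the hair follicles rest (telogen). For each line the labels give a labelled population, written Slc1a3+, Aspm+, Dlx1+ or K14+ here, and the total IFE of the same line. The labelled cells are those in which the reporter was switched on, and their progeny, so they hold only what each Cre driver marks. Back skin contributed Slc1a3+ and Aspm+ cells and their totals with 3 libraries each, and K14+ cells and their total with 2 each, 16 libraries in all. Tail skin contributed labelled and total cells of the Slc1a3, Aspm and Dlx1 lines with 2 libraries each, 12 libraries in all. The Dlx1 line is therefore seen only in tail and the K14 line only in back.

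Wnt proteins are lipid-modified secreted signals that bind Frizzled receptors together with the co-receptors Lrp5 and Lrp6. Binding stops a complex of Axin, Apc and the kinase Gsk3 from degrading beta-catenin, which then enters the nucleus and activates genes with TCF/LEF factors, among them feedback inhibitors such as Axin2. R-spondins raise the response by taking the ubiquitin ligases Znrf3 and Rnf43, which remove Frizzleds, off the cell surface. In epidermis, basal cells make several Wnt ligands themselves, and Wnt signalling maintains these cells and is needed for hair follicles.

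Library totals ran from 7738262 to 37670589 counts (median 20193388). Levels are CPM, the share of a library's counts after scaling by the trimmed mean of M values, and levels of different genes are compared only as CPM per kb of exon. A change is a log2 ratio with its standard error (SE) from 1 model of all 28 libraries, and it passed at an adjusted p under 0.05. The labels do not say that replicates are separate animals, so these p-values measure the spread between libraries, part of which may be technical. The back Slc1a3 total library numbered 4 stood apart, with the lowest total, 14436 genes detected and 0.208% mitochondrial counts. The basal markers Krt5, Krt14, Krt15, Itga6, Itgb4, Col17a1 and Trp63 together held 55030 to 118827 CPM in every library. Their sum had a median of 65358 CPM in back and 88327 CPM in tail. Single markers moved apart, with Krt14 at medians of 12374 CPM in back and 37287 CPM in tail, and Krt15 at 17918 and 3412 CPM.

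Ranked per kb of exon over the 28 libraries, the most abundant member was Ctnnb1, which encodes beta-catenin, at 112 ± 15.8 CPM per kb (mean ± SD, n = 28). Among the ligands, Wnt4 (73.9 ± 19.2), Wnt10a (66.7 ± 12.2) and Wnt3 (48.8 ± 15.3 CPM per kb) were the highest. In back their order is not separated by the spread between libraries, whereas in tail Wnt4 (88 ± 19.2) was above Wnt10a (56.4 ± 8.02) and Wnt3 (35.4 ± 8.92 CPM per kb, n = 12). The leading Frizzled was Fzd10 (53.7 ± 12.8 CPM per kb), above Fzd1 (12.7 ± 5.61) and Fzd7 (9.98 ± 6.32). Wls, which carries Wnt proteins to the cell surface, stood at 42.8 ± 9.76 CPM per kb, and Porcn, the enzyme that attaches their lipid, at 3.48 ± 1.37. Sfrp1, a secreted decoy that binds Wnt proteins, was at 24 ± 3.35 CPM per kb in back (n = 16), above Dkk3 at 4.41 ± 0.986. In tail the levels of Sfrp1 (25.3 ± 7.92) and Dkk3 (25.5 ± 7.26 CPM per kb, n = 12) are not separated by their spread. Of the co-receptors, Lrp5 (18.1 ± 3.12) was higher per kb than Lrp6 (6.38 ± 2.05). Of the R-spondin receptors, Lgr6 was above Lgr4 in back (22.6 ± 6.31 against 11.2 ± 2.23 CPM per kb) and not in tail (9.38 ± 2.50 against 14.1 ± 3.03). Axin1, the scaffold of the destruction complex, held 27.6 ± 6.03 CPM per kb and Gsk3b 13.6 ± 2.32. Among the nuclear factors in back, Tcf7 was at 2.82 ± 0.764, Tcf7l2 at 1.70 ± 0.611 and Tcf7l1 at 0.352 ± 0.238 CPM per kb. In tail Tcf7l1 was above Tcf7l2, with Tcf7 at 9 ± 1.09, Tcf7l1 at 3.24 ± 0.955 and Tcf7l2 at 1.99 ± 0.292 CPM per kb. Over all libraries Lef1 held 0.0647 ± 0.0781. In all, 6 members were too low to test. Dkk1 had 0 counts in all 28 libraries, and Fzd9, Rspo1, Sfrp2, Sfrp4 and Dkk2 had 54, 16, 26, 24 and 31 counts over all of them. A count of 0 allows up to 3 counts, which is 0.0854 to 0.383 CPM depending on the library, for counting error only.

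**Figure D1:**
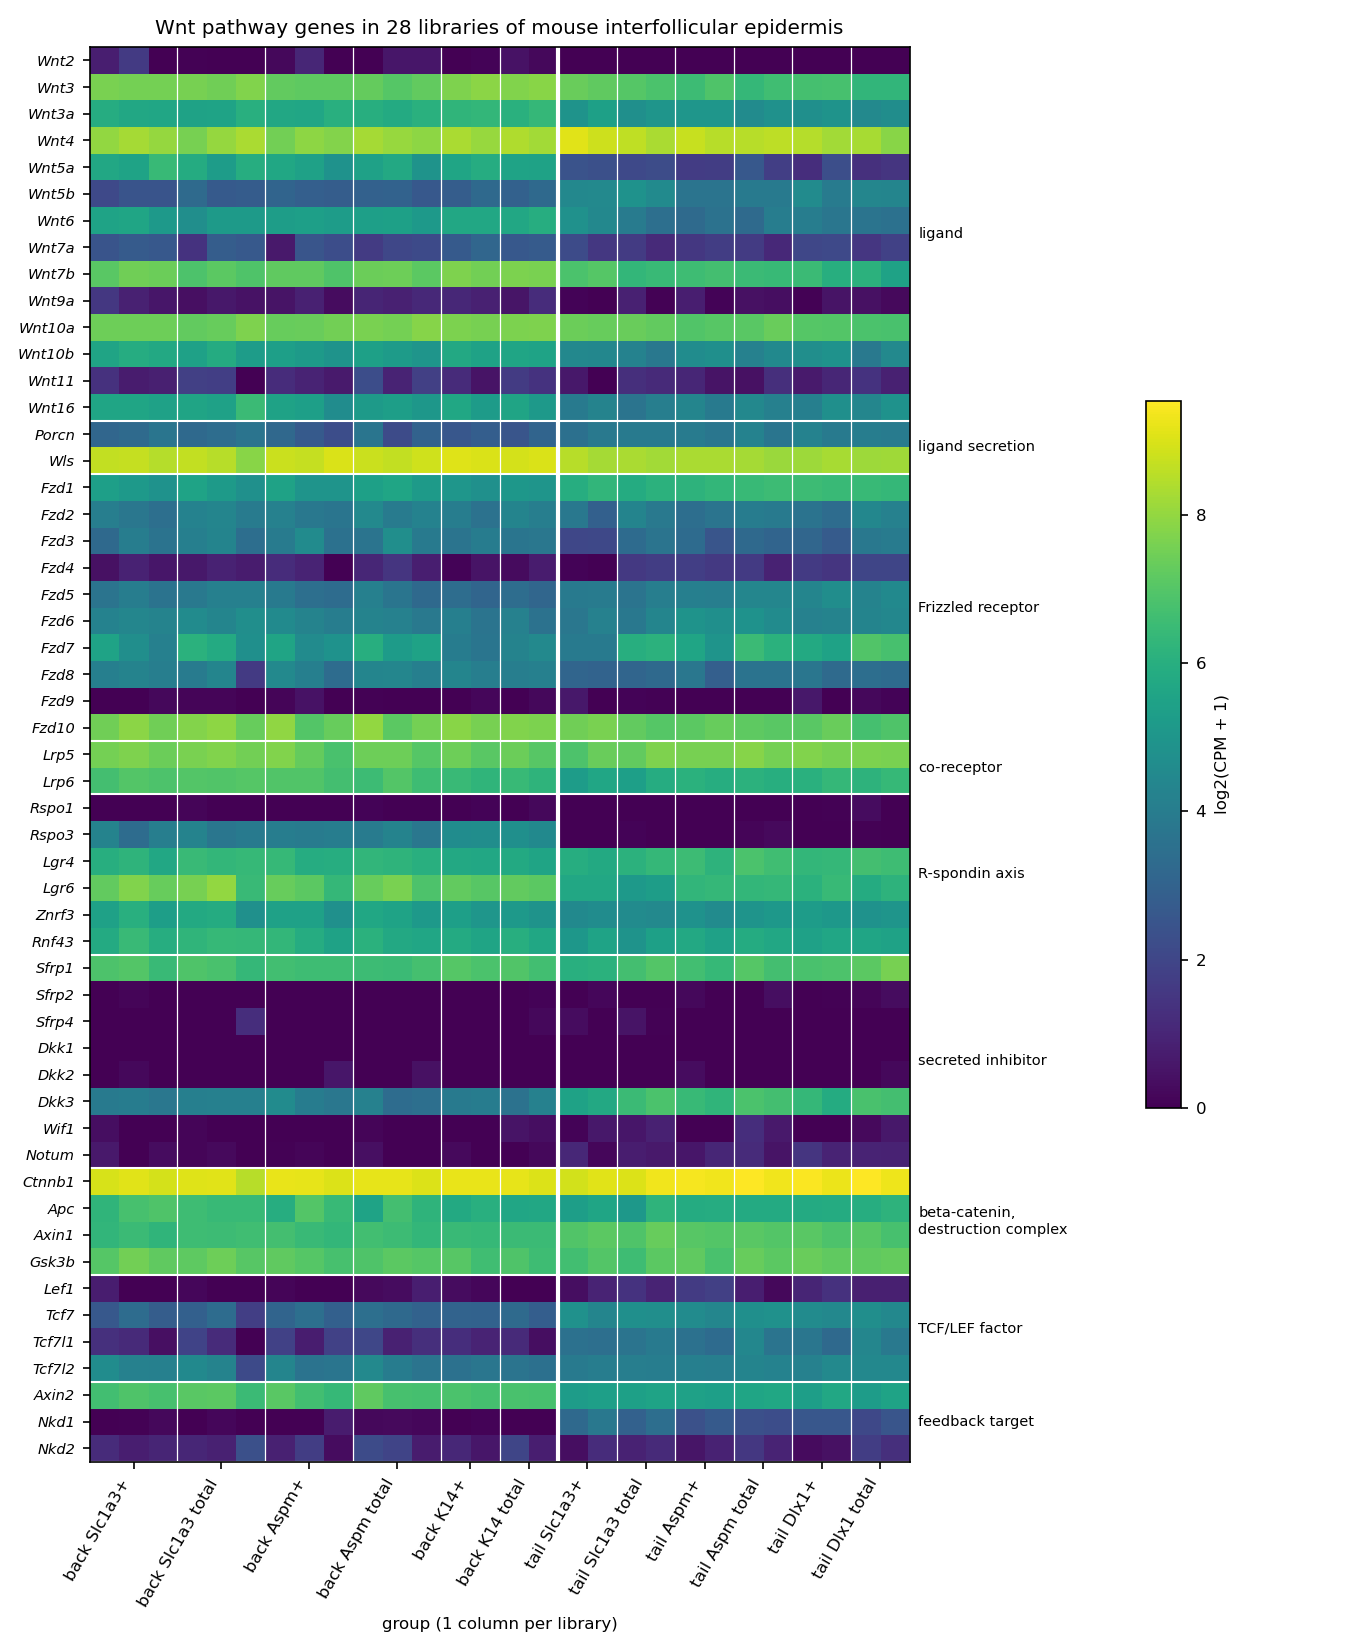
Level of each of the 53 members (rows, by role) in each of the 28 libraries (columns, by group), as log2(CPM + 1), with the thick vertical line between back and tail. Rspo3, Wnt5a and Axin2 are brighter in back, and Dkk3, Tcf7l1, Tcf7 and Nkd1 are brighter in tail.

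Promoters are shown for 6 members that the results below turn on and that have an entry in the RefSeq table (GRCm38.p6). Each run covers 250 bases before to 50 bases after a start, 5′ to 3′ on the gene's strand, in lower case. Capitals mark CTTTGA, a form of the TCF/LEF core, or TCAAAG on the other strand. Axin2 and Nkd1 are the feedback targets that moved in opposite directions between sites, Tcf7l1 is a nuclear factor, Lgr6 a receptor of R-spondins, Wnt5b a ligand and Fzd7 the receptor that changed between cell populations. Axin2 lies at chr11:108920099-108920398 on the + strand, Nkd1 at chr8:88527383-88527682 (+), Tcf7l1 at chr6:72788996-72789295 (-), Lgr6 at chr1:135105227-135105526 (-), Wnt5b at chr6:119449337-119449636 (-), 1 of its 3 starts in the table, and Fzd7 at chr1:59481897-59482196 (+). Of the 6, the Wnt5b start holds CTTTGA, 71 bases before the start. The other 5 windows hold neither CTTTGA nor TCAAAG, nor do the other 2 Wnt5b starts. Other forms, such as CTTTGT or ACAAAG, were not searched for.
Axin2: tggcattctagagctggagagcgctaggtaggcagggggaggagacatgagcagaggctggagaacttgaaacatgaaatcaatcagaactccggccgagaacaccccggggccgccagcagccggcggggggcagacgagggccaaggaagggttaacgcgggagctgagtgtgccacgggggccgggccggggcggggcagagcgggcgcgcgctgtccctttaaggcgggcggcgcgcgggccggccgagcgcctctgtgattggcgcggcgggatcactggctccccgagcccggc
Nkd1: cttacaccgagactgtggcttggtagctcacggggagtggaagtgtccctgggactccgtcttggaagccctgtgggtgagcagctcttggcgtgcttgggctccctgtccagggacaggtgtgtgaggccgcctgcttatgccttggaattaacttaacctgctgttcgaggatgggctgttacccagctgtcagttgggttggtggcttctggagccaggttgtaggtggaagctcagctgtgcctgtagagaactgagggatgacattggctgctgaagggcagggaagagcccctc
Tcf7l1: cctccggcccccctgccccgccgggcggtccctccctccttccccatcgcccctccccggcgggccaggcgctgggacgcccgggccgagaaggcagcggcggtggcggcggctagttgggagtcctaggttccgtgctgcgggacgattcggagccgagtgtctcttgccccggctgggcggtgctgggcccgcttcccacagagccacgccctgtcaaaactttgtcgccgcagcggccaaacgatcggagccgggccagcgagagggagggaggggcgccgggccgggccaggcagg
Lgr6: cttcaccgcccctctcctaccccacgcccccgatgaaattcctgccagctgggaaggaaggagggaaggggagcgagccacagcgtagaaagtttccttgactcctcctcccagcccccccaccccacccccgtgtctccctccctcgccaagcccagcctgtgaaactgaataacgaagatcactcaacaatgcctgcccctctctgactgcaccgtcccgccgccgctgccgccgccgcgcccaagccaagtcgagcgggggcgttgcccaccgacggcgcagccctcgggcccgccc
Wnt5b: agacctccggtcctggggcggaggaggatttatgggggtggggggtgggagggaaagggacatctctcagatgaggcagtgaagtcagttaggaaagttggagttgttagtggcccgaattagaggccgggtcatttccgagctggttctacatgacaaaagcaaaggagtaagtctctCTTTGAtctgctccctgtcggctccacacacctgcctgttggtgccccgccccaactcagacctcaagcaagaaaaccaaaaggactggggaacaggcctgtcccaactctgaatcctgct
Fzd7: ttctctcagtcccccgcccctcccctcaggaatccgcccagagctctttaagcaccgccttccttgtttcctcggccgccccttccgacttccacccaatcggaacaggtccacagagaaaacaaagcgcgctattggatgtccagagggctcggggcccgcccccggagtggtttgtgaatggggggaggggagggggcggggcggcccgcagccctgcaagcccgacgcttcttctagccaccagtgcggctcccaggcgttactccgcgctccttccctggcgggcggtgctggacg
Of the 53 members 35 matched the table, with 45 promoters. The core in the form searched was in 6 of these 45 (13.3%), against 16% of all 32851 promoters of the same length in the table. The 6 belong to Lef1, Fzd1, Wnt5b, Wnt11, Gsk3b and Dkk1.

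Between body sites the pathway differed in many members. In total IFE, tail over back, 12 members rose and 19 fell of 47 tested (66%), where 46.2% of all 17493 genes passed (22.5% higher and 23.7% lower). In Slc1a3+ cells 8 rose and 17 fell (53.2%, against 40.6% of all genes, 19% higher and 21.6% lower), and in Aspm+ cells 10 rose and 12 fell (46.8%, against 27.2%, 12.7% higher and 14.5% lower). The comparisons of total IFE and of labelled cells use different libraries of the Slc1a3 and Aspm lines. The median member changed by -0.29 in total IFE, -0.42 in Slc1a3+ cells and -0.34 in Aspm+ cells, beside -0.03, -0.09 and -0.05 for all genes. Scaling by library totals moved the median of all genes in Slc1a3+ cells to -0.29, and 8 members then rose and 23 fell there. Without back Slc1a3 total library 4, 11 members rose and 19 fell in total IFE. In 12 of the 47 tested members (25.5%) the 12 tail libraries and the 16 back libraries did not overlap at all, including the K14 and Dlx1 lines, against 11.7% of all genes. Of these 12 members 7 were higher in tail (Wnt5b, Fzd1, Dkk3, Axin1, Tcf7, Tcf7l1 and Nkd1; 5.92% of all genes) and 5 lower (Wnt3a, Wnt5a, Wnt10b, Rspo3 and Axin2; 5.77%). In bulk tissue, fewer cells of a type and less RNA per cell cannot be told apart.

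Markers of other cell types also differed between sites, where 22.5% of all genes were higher and 23.7% lower in tail total IFE. Hair follicle bulge and germ markers summed to 246 to 831 CPM in back (median 467) and 445 to 1927 CPM in tail (median 1187), and 8 of 10 rose in total IFE. These sums were carried mostly by Postn (median 270 CPM in back and 741 CPM in tail) and Cdh3 (123 and 208 CPM). Cd34 had medians of 0.755 and 6.94 CPM, and Lgr5 of 0.255 and 1.64 CPM. Upper follicle and sebaceous markers summed to 612 to 1060 CPM in back and 870.2 to 1693 CPM in tail, with 6 of 8 higher and 1 lower. Fibroblast markers summed to 14.9 to 33.2 CPM in back and 53.7 to 98.1 CPM in tail, carried by Dcn and Fbln1, with Pdgfrb at 0 in 24 libraries, Lum at 0 in 20, and Col1a1, Col1a2 and Col3a1 at or below 6.12 CPM in all. Langerhans cell markers summed to 84.1 to 380.2 CPM in back and 29.2 to 100.3 CPM in tail, with 6 of 8 lower. Epcam had the highest medians of this list (103 CPM in back and 33.5 CPM in tail), and Cd207 stayed at or below 2.62 CPM. Spinous and granular markers overlapped between sites as sums, at 7722 to 15660.0 CPM in back and 6973 to 12863 CPM in tail, with 2 of 8 higher and 2 lower. Melanocyte markers (6 of 8 higher, 1 lower) reached 35.5 CPM as a sum and epidermal T cell markers (1 of 5 tested higher, 3 lower) 154 CPM. Thy1, at up to 153 CPM, carried the T cell sum. Cd3d, Cd3e, Cd3g, Trdc, Ptprc and Cd2 had medians of 0 CPM in tail and at most 3.70 CPM in any library. Endothelial, Merkel cell and muscle markers stayed at or below 32.2, 5.64 and 4.77 CPM as sums, with 0 to 1 tested markers higher and 1 to 2 lower. The part of these cells in the site differences was not tested.

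**Figure D2:**
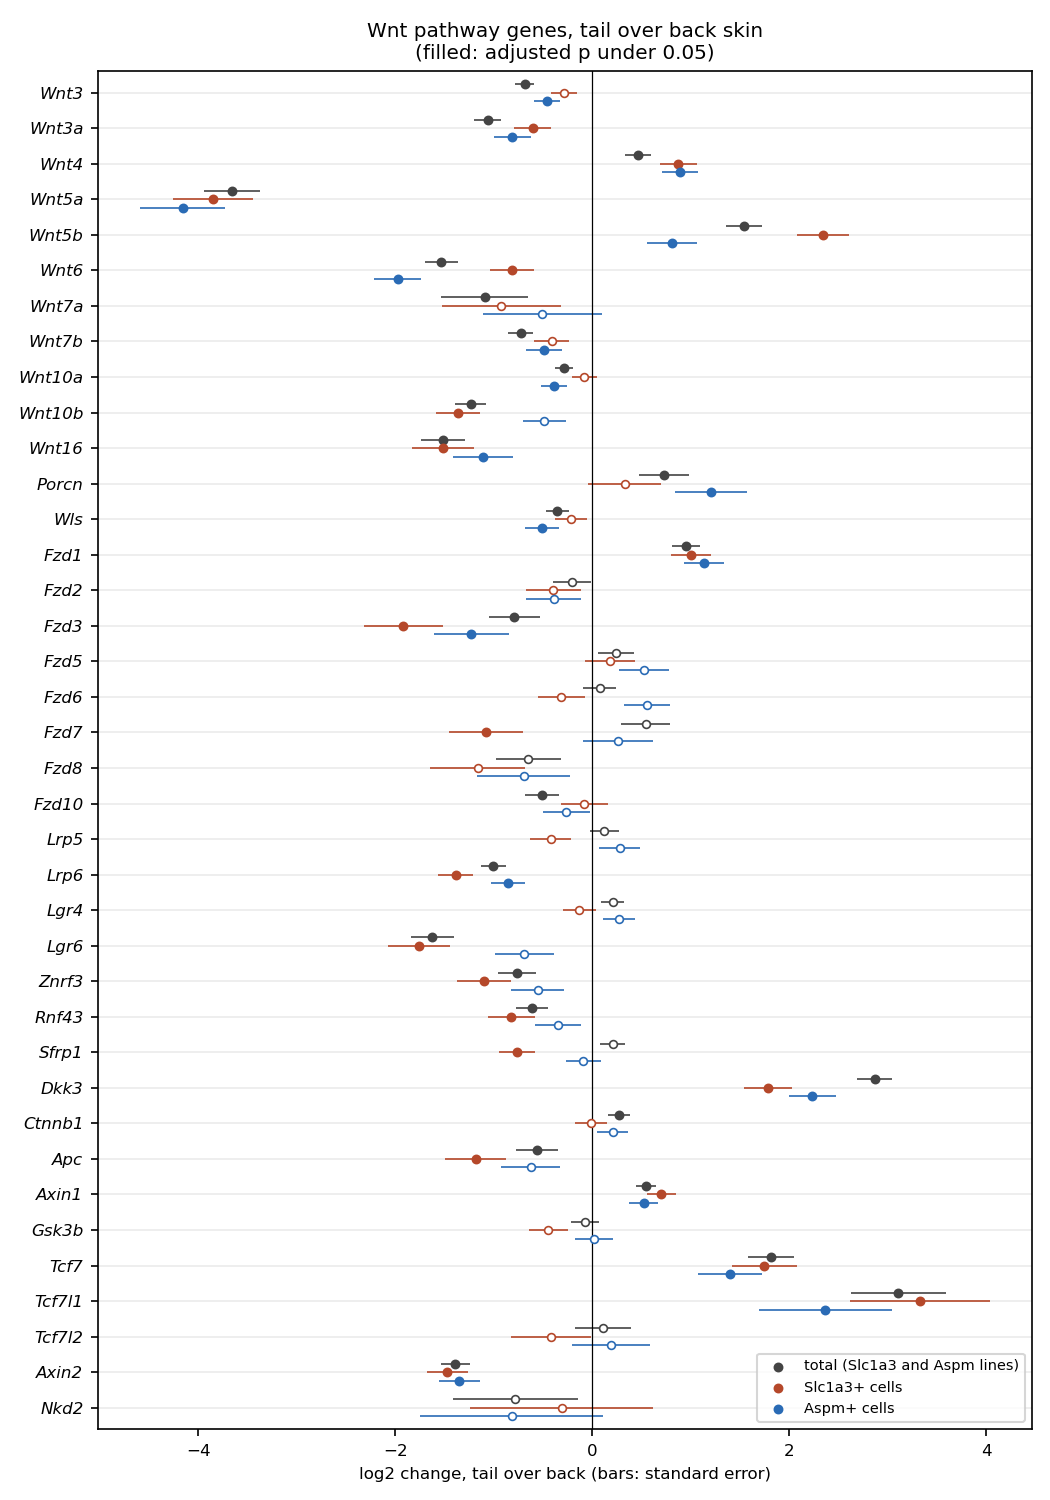
Log2 change, tail over back (x axis; bars, SE), of the 38 tested members with more than 10 counts on each side of every site comparison, in total IFE, Slc1a3+ cells and Aspm+ cells. Filled points passed at an adjusted p under 0.05. Wnt5a lies farthest to the left, and Tcf7l1, Dkk3 and Wnt5b reach farthest to the right.

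Of the 14 ligands, all tested, 2 rose and 9 fell in tail against back total IFE, with a median of -0.99, where 22.5% of all genes rose and 23.7% fell. In Slc1a3+ cells 2 rose and 6 fell (19% and 21.6% of all genes), and in Aspm+ cells 2 rose and 7 fell (12.7% and 14.5%). Wnt5a, best known as a ligand of signalling that does not pass through beta-catenin, was at 28.3 to 85.6 CPM (median 46.7) in back libraries and 1.39 to 5.18 CPM (median 2.87) in tail. Every tail library lay far below every back library. The log2 change was -3.66 (SE 0.29, adjusted p = 3.71e-10) in total IFE, -3.85 (SE 0.41, adjusted p = 1.11e-07) in Slc1a3+ cells and -4.16 (SE 0.43, adjusted p = 9.14e-08) in Aspm+ cells. Wnt5b, the closest relative of Wnt5a, went the other way, with 3.31 to 8.71 CPM (median 6.20) in back and 11.6 to 28.3 CPM (median 19.4) in tail. All tail libraries were above all back libraries. Its change was 1.54 (SE 0.18, adjusted p = 2.36e-07) in total IFE, 2.35 (SE 0.26, adjusted p = 2.02e-07) in Slc1a3+ cells and 0.81 (SE 0.26, adjusted p = 0.0201) in Aspm+ cells. With back Wnt5a at 6.23 ± 1.73 and Wnt5b at 2.39 ± 0.582 CPM per kb (mean ± SD, n = 16), and tail Wnt5a at 0.383 ± 0.158 and Wnt5b at 6.96 ± 1.96 CPM per kb (n = 12), the order of the pair was reversed between sites.

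Wnt4 was the other ligand that rose. It stood at 182 to 333 CPM (median 265) in back and 227 to 545 CPM (median 364) in tail, with overlapping libraries. The change was 0.47 (SE 0.13, adjusted p = 0.00559) in total IFE, 0.88 (SE 0.19, adjusted p = 0.00061) in Slc1a3+ cells and 0.89 (SE 0.19, adjusted p = 0.000835) in Aspm+ cells. Wnt3a, Wnt10b and Wnt3, ligands of beta-catenin signalling in skin, fell. Wnt3a was at 44.2 to 80.7 CPM (median 60.8) in back and 21.5 to 41.7 CPM (median 27.8) in tail and changed by -1.06 (SE 0.13, adjusted p = 8.38e-07) in total IFE, -0.60 (SE 0.19, adjusted p = 0.0127) in Slc1a3+ cells and -0.81 (SE 0.19, adjusted p = 0.00227) in Aspm+ cells. Wnt10b was at 29.1 to 58.7 CPM (median 43.3) in back and 13.3 to 28.3 CPM (median 21.1) in tail and changed by -1.23 (SE 0.16, adjusted p = 9.2e-07) in total IFE and -1.37 (SE 0.22, adjusted p = 3.53e-05) in Slc1a3+ cells. Neither gene had a tail library within the back range. In Aspm+ cells the Wnt10b value was -0.49 (SE 0.22, adjusted p = 0.0989), short of the threshold. Wnt3 was at 129.6 to 233 CPM (median 186) in back and 75.7 to 163 CPM (median 106) in tail and changed by -0.69 (SE 0.095, adjusted p = 2.8e-06) in total IFE and -0.46 (SE 0.13, adjusted p = 0.0128) in Aspm+ cells, with -0.29 (SE 0.13, adjusted p = 0.0854) in Slc1a3+ cells. Its back and tail libraries overlapped only through tail Slc1a3+ cells, at 163 and 147 CPM.

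Wnt6 was at 25.2 to 59.96 CPM (median 40.2) in back and 8.84 to 27 CPM (median 12) in tail, and only tail Slc1a3+ library 1, at 27 CPM, reached the back range. It changed by -1.53 (SE 0.17, adjusted p = 7.66e-08) in total IFE, -0.82 (SE 0.23, adjusted p = 0.00576) in Slc1a3+ cells and -1.98 (SE 0.24, adjusted p = 1.19e-06) in Aspm+ cells. Wnt16 was at 24.1 to 89.5 CPM (median 42.8) in back and 11.6 to 28.3 CPM (median 17.6) in tail and changed by -1.52 (SE 0.22, adjusted p = 5.57e-06) in total IFE, -1.52 (SE 0.31, adjusted p = 0.000463) in Slc1a3+ cells and -1.11 (SE 0.31, adjusted p = 0.00899) in Aspm+ cells. Both ligands fell in all 3 comparisons, and for Wnt16 only the tail Dlx1 libraries numbered 2 reached the back range. Smaller falls were seen for ligands that basal cells express strongly. Wnt7b, at 115 to 208 CPM (median 156) in back and 43.5 to 128 CPM (median 88.5) in tail, changed by -0.73 (SE 0.13, adjusted p = 6.73e-05) in total IFE and -0.49 (SE 0.18, adjusted p = 0.047) in Aspm+ cells. Wnt10a, at 152 to 223 CPM (median 182) in back and 111 to 167 CPM (median 135) in tail, changed by -0.29 (SE 0.092, adjusted p = 0.0136) and -0.39 (SE 0.13, adjusted p = 0.0287). For both, the Slc1a3+ values missed the threshold. Wnt7a was low, at 0.560 to 7.78 CPM (median 4.96) in back and 1.15 to 3.49 CPM (median 2.13) in tail, and changed by -1.09 (SE 0.44, adjusted p = 0.0449) in total IFE. Wnt9a passed in Slc1a3+ cells alone, on 58 counts in 3 back libraries against 1 count in 2 tail libraries (ratio 38.5, exact 95% interval 6.64 to 1546, counting error only). Wnt11 stayed at or below 3.75 CPM and Wnt2 at or below 2.05 CPM, with 0 counts of Wnt2 in all 12 tail libraries. Neither passed in any comparison in the model of all 28 libraries.

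**Figure D3:**
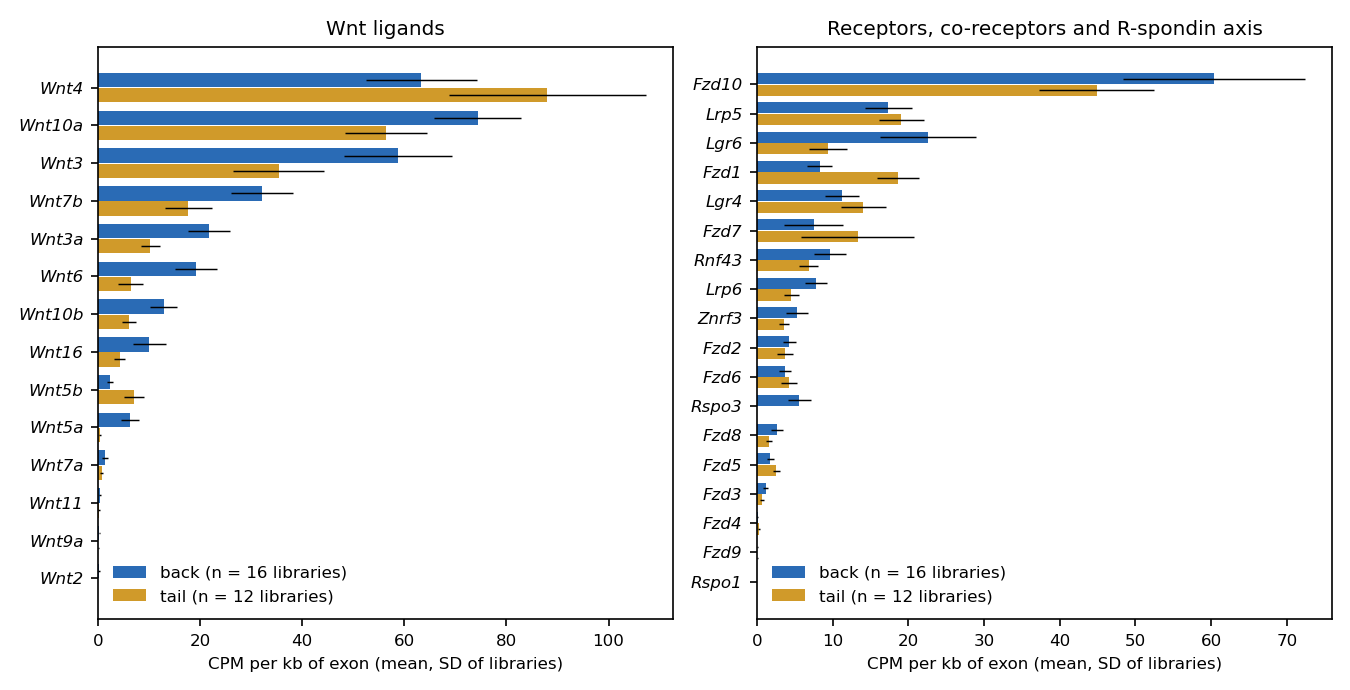
Levels of the 14 Wnt ligands (left) and of the 18 receptors, co-receptors and genes of the R-spondin axis (right) as CPM per kb of exon, with bars for the mean and lines for the SD over 16 back and 12 tail libraries. Summed over the ligands, back libraries held 254 to 357 (median 298) and tail libraries 168 to 315 (median 230.2) CPM per kb.

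The 2 genes of ligand secretion moved apart. Porcn was at 3.57 to 12.1 CPM (median 7.59) in back and 10.5 to 17.7 CPM (median 14.2) in tail, and changed by 0.73 (SE 0.26, adjusted p = 0.0224) in total IFE and 1.21 (SE 0.36, adjusted p = 0.0155) in Aspm+ cells. Wls was at 227 to 532 CPM (median 429) and 272 to 366 CPM (median 304), and changed by -0.35 (SE 0.12, adjusted p = 0.0172) and -0.51 (SE 0.17, adjusted p = 0.0267). Back and tail libraries overlapped for both, and the Slc1a3+ values missed the threshold, at 0.33 (SE 0.37, adjusted p = 0.494) for Porcn and -0.21 (SE 0.17, adjusted p = 0.314) for Wls.

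Of 9 Frizzleds tested, Fzd1 rose and Fzd3 fell in all 3 site comparisons, and Fzd10 fell in total IFE. Among all genes 22.5% rose and 23.7% fell in total IFE, 19% and 21.6% in Slc1a3+ cells, and 12.7% and 14.5% in Aspm+ cells. Fzd1 was at 26.5 to 47.3 CPM (median 32.9) in back and 57.7 to 92.9 CPM (median 79.5) in tail, with no overlap. The change was 0.95 (SE 0.14, adjusted p = 9.32e-06) in total IFE, 1.0 (SE 0.20, adjusted p = 0.000405) in Slc1a3+ cells and 1.13 (SE 0.20, adjusted p = 0.000185) in Aspm+ cells. Fzd3, known for planar cell polarity, was at 8.50 to 25 CPM (median 13.4) in back and 3.08 to 14.7 CPM (median 8.15) in tail and changed by -0.79 (SE 0.26, adjusted p = 0.0158) in total IFE, -1.92 (SE 0.40, adjusted p = 0.000513) in Slc1a3+ cells and -1.23 (SE 0.38, adjusted p = 0.0175) in Aspm+ cells. Its lowest libraries were the tail Slc1a3+ pair, at 3.08 and 3.20 CPM. Fzd10, the most abundant Frizzled per kb, was at 125 to 254 CPM (median 194) in back and 105 to 196 CPM (median 139.8) in tail and changed by -0.51 (SE 0.17, adjusted p = 0.0174) in total IFE, with overlapping libraries. In Slc1a3+ cells Fzd7 fell as well, with 45.1, 25 and 16.9 CPM in back against 13.8 and 13.7 CPM in tail, a change of -1.08 (SE 0.38, adjusted p = 0.0259). Fzd4 fell there on 31 back counts against 1 tail count, a ratio of 20.6 (exact 95% interval 3.43 to 838, counting error only; adjusted p = 0.0252). Fzd2, Fzd5, Fzd6 and Fzd8 passed in none of the 15 comparisons in the model of all 28 libraries. Their back medians were 15.6, 11.5, 17.9 and 16.3 CPM and their tail medians 13.4, 17.4, 18.9 and 9.01 CPM. Fzd5, Fzd6 and Fzd8 passed in some other settings, some of which are given below. Of the co-receptors Lrp6 fell and Lrp5 did not pass. Lrp6 was at 73.1 to 129 CPM (median 108) in back and 37.7 to 82.8 CPM (median 63.9) in tail and changed by -1.0 (SE 0.12, adjusted p = 6.47e-07) in total IFE, -1.39 (SE 0.18, adjusted p = 1.82e-06) in Slc1a3+ cells and -0.86 (SE 0.18, adjusted p = 0.00072) in Aspm+ cells. Only the tail Dlx1 libraries numbered 2 reached the back range of Lrp6. Lrp5 was at 111 to 211 CPM (median 171) and 117 to 220.2 CPM (median 193), with a value of 0.12 (SE 0.15, adjusted p = 0.523) in total IFE.

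Of the R-spondin axis, 4 of 5 tested members fell in tail total IFE and 0 rose, in Slc1a3+ cells likewise 4 fell, and in Aspm+ cells 1 fell. Of all genes 23.7%, 21.6% and 14.5% fell in these comparisons. Rspo3, the R-spondin expressed in these libraries, was at 9.32 to 26.1 CPM (median 15.7) in all 16 back libraries. In tail it had 0 counts in 8 of 12 libraries and at most 0.191 CPM in the others, so the sites did not come near each other. Against a floor of 3 counts per library, Rspo3 was at least 82.5-fold lower in tail Slc1a3+ cells and at least 91.5-fold lower in tail Aspm+ cells (adjusted p = 1.13e-09 and 1.16e-09). In total IFE 7 tail counts stood against 1926 back counts, a ratio of 182.1 (exact 95% interval 88.2 to 454, counting error only; adjusted p = 3.14e-12). Lgr6, an R-spondin receptor and stem cell marker of the upper follicle and IFE, was at 80.9 to 251 CPM (median 151) in back and 35 to 85 CPM (median 68.4) in tail. It changed by -1.62 (SE 0.22, adjusted p = 2.22e-06) in total IFE and -1.76 (SE 0.31, adjusted p = 9.94e-05) in Slc1a3+ cells, with -0.69 (SE 0.30, adjusted p = 0.0911) in Aspm+ cells. The ligases that R-spondins counteract passed in the same 2 comparisons as Lgr6. Znrf3 was at 26.4 to 64.4 CPM (median 41.5) in back and 21.7 to 37.5 CPM (median 28.1) in tail and changed by -0.77 (SE 0.19, adjusted p = 0.00217) in total IFE and -1.10 (SE 0.28, adjusted p = 0.00266) in Slc1a3+ cells. Rnf43 was at 43.6 to 86.3 CPM (median 59.6) in back and 28.6 to 57.6 CPM (median 44.7) in tail and changed by -0.61 (SE 0.16, adjusted p = 0.00409) and -0.82 (SE 0.24, adjusted p = 0.00741). Back and tail libraries overlapped for both ligases, and for Lgr6 through 1 tail library, Dlx1+ library 2. The receptor Lgr4 did not pass, at 0.21 (SE 0.12, adjusted p = 0.152) in total IFE. In Aspm+ cells Znrf3, at -0.55 (SE 0.27, adjusted p = 0.134), and Rnf43, at -0.35 (SE 0.23, adjusted p = 0.286), did not pass either.

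Among secreted inhibitors 3 of 4 tested members rose in tail total IFE and 0 fell, where 22.5% of all genes rose and 23.7% fell. Dkk3, a divergent member of the Dickkopf family whose effect on Wnt signalling is not settled, was at 9.36 to 23.1 CPM (median 15) in back and 43.9 to 114 CPM (median 87.5) in tail. No libraries overlapped. It changed by 2.87 (SE 0.17, adjusted p = 3.71e-12) in total IFE, 1.79 (SE 0.24, adjusted p = 3.51e-06) in Slc1a3+ cells and 2.24 (SE 0.24, adjusted p = 1.87e-07) in Aspm+ cells. Wif1, which binds Wnt proteins, stayed at or below 1.36 CPM, and its rise in total IFE (adjusted p = 0.00642) rests on 72 tail counts against 6 back counts, a ratio of 18.1 (exact 95% interval 7.94 to 51, counting error only). Notum, which strips the lipid from Wnt proteins, was at or below 1.80 CPM, and changed by 2.65 (SE 0.99, adjusted p = 0.0321) in total IFE. Sfrp1, far more abundant, was at 79.7 to 128 CPM (median 102) in back and 63.2 to 192 CPM (median 107) in tail. It did not pass in total IFE, at 0.21 (SE 0.13, adjusted p = 0.182), and fell in Slc1a3+ cells, with a change of -0.76 (SE 0.18, adjusted p = 0.00193).

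In the cytoplasm, Axin1 rose in all 3 site comparisons, and Apc fell in total IFE and in Slc1a3+ cells. Axin1 was at 74.4 to 102 CPM (median 89.4) in back and 106 to 159 CPM (median 128) in tail, with no overlap, and changed by 0.55 (SE 0.10, adjusted p = 0.000153) in total IFE, 0.70 (SE 0.15, adjusted p = 0.000538) in Slc1a3+ cells and 0.52 (SE 0.15, adjusted p = 0.0103) in Aspm+ cells. Apc, the other scaffold, was at 45.4 to 126 CPM (median 79.4) in back and 32.8 to 72.6 CPM (median 56.5) in tail and changed by -1.18 (SE 0.31, adjusted p = 0.0037) in Slc1a3+ cells. In total IFE the change was -0.56 (SE 0.21, adjusted p = 0.0336). The Aspm+ value, -0.62 (SE 0.30, adjusted p = 0.131), did not pass. Ctnnb1 differed little, at 360.1 to 601 CPM (median 555) in back and 470.0 to 741 CPM (median 638) in tail, and changed by 0.28 (SE 0.11, adjusted p = 0.0462) in total IFE. Gsk3b did not pass, at -0.07 (SE 0.14, adjusted p = 0.694) in total IFE.

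Of the 4 TCF/LEF factors, Tcf7 and Tcf7l1 rose in all 3 site comparisons, and 0 fell. Of all genes 22.5% rose and 23.7% fell in total IFE, 19% and 21.6% in Slc1a3+ cells, and 12.7% and 14.5% in Aspm+ cells. Tcf7l1, which acts mostly as a repressor in skin stem cells, was at 0 to 3.09 CPM (median 1.23) in back and 8.63 to 20.3 CPM (median 11.6) in tail. Tcf7 was at 2.42 to 10.3 CPM (median 7.09) and 19.3 to 27.2 CPM (median 24.1). For both genes every tail library exceeded every back library. Tcf7l1 changed by 3.11 (SE 0.48, adjusted p = 1.3e-05) in total IFE, 3.33 (SE 0.71, adjusted p = 0.000648) in Slc1a3+ cells and 2.37 (SE 0.67, adjusted p = 0.0107) in Aspm+ cells. Tcf7 changed by 1.81 (SE 0.23, adjusted p = 1.01e-06) in total IFE, 1.75 (SE 0.33, adjusted p = 0.000198) in Slc1a3+ cells and 1.40 (SE 0.33, adjusted p = 0.00241) in Aspm+ cells. Lef1 was low at both sites, at or below 0.741 CPM in back and at 0.144 to 2.49 CPM (median 0.946) in tail. It passed in Aspm+ cells (adjusted p = 0.00366), on 84 counts in 2 tail libraries against 2 counts in 3 back libraries, a ratio of 85.5 (exact 95% interval 22.9 to 717, counting error only). Tcf7l2 did not pass, at 0.11 (SE 0.28, adjusted p = 0.782) in total IFE.

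The feedback targets moved in opposite directions. Axin2, a scaffold of the destruction complex and a widely used readout of beta-catenin signalling, was at 82.2 to 146 CPM (median 107) in back and 37.3 to 51 CPM (median 42) in tail. It changed by -1.39 (SE 0.15, adjusted p = 4.85e-08) in total IFE, -1.47 (SE 0.21, adjusted p = 5.99e-06) in Slc1a3+ cells and -1.35 (SE 0.21, adjusted p = 2.89e-05) in Aspm+ cells. Nkd1, which binds Dishevelled, was at 0 to 0.662 CPM (median 0.0233) in back and 3.16 to 13.2 CPM (median 5.04) in tail. Back libraries were at or near 0 for Nkd1, whereas each tail library had counts. The change was 5.94 (SE 0.73, adjusted p = 6.62e-07) in total IFE and 4.56 (SE 0.92, adjusted p = 0.000664) in Aspm+ cells. In Slc1a3+ cells 371 tail counts stood against 3 back counts, a ratio of 186 (exact 95% interval 63.3 to 908, counting error only; adjusted p = 1.3e-05). Both genes separated the sites completely, in all lines and in labelled and total cells. Nkd2 passed in no comparison and stayed at or below 4.08 CPM.

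**Figure D4:**
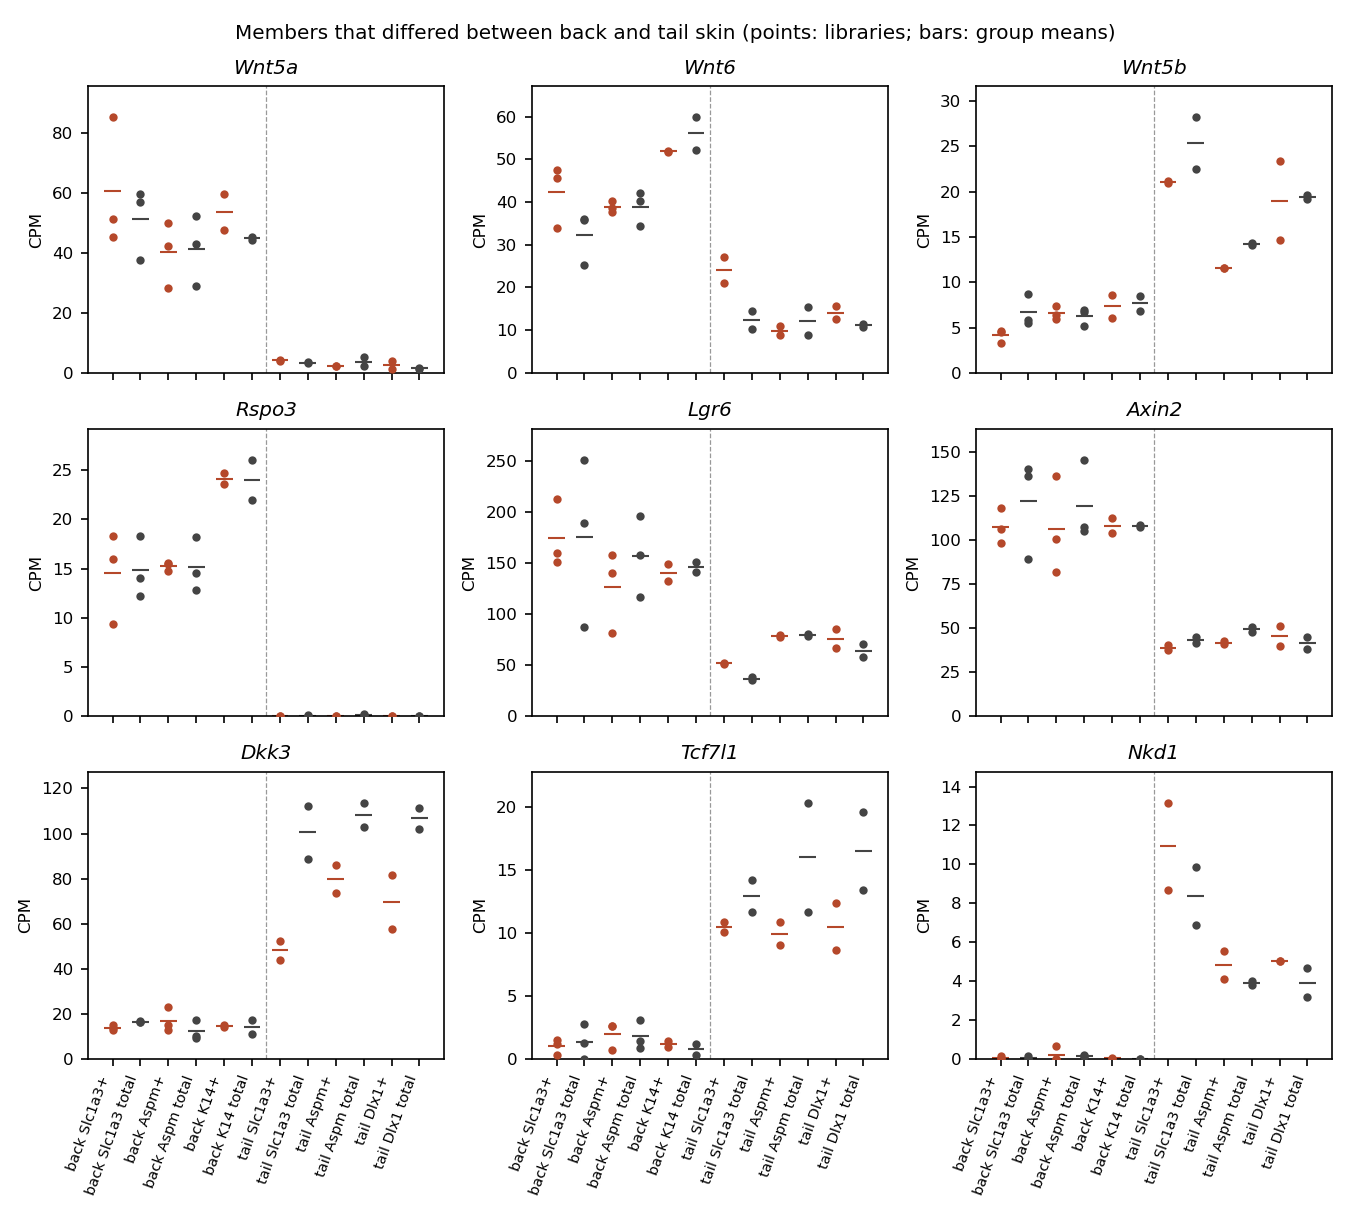
CPM of 9 members in each library (points) of the 12 groups, with a bar for the group mean, labelled cells in red and total IFE in grey, and back left of the dashed line. Wnt5a, Rspo3 and Axin2 are higher in every back library, and Wnt5b, Dkk3, Tcf7l1 and Nkd1 in every tail library.

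Some of these site calls did not hold in every setting tried, although each kept its direction. In total IFE the calls lost, with the number of 18 alternatives that lost each in brackets, were those of Ctnnb1 (12), Wnt7a (11), Notum (8), Apc (7), Porcn (5), Fzd3 (4), Wls (4), Wnt10a (4), Fzd10 (4) and Wnt4 (1). In Slc1a3+ cells (13 alternatives, 12 for Fzd4) they were those of Fzd4 (4), Fzd7 (4), Rnf43 (2), Wnt3a (1), Apc (1), Wnt9a (1) and Wnt6 (1), and in Aspm+ cells (13 alternatives) those of Wnt7b (8), Wnt10a (7), Wnt5b (6), Wls (5), Fzd3 (3), Wnt3 (3), Porcn (3), Axin1 (2), Tcf7l1 (2) and Wnt16 (1). The rises of Fzd1, Dkk3, Tcf7 and Nkd1 and the falls of Wnt5a, Lrp6, Rspo3 and Axin2 held in every alternative of all 3 comparisons. Some members short of the threshold passed in other settings, but not in all. Fzd8 fell in Slc1a3+ cells by DESeq2 (-1.15, adjusted p = 0.0379) and in edgeR with only the groups compared (-1.14, adjusted p = 0.00192). In total IFE Lef1 rose by DESeq2 (2.34, adjusted p = 0.0403) and Fzd7 by limma-voom (0.53, adjusted p = 0.0493). Fzd5 rose there in edgeR with all 3 lines of each site (0.56, adjusted p = 0.00419). Fzd6 rose in Aspm+ cells by DESeq2 (0.59, adjusted p = 0.0425) and limma-voom (0.58, adjusted p = 0.0388). In edgeR without the low-count filter, Lgr6 fell in Aspm+ cells and Wnt2 in Slc1a3+ cells. For Tcf7l1 in Aspm+ cells the adjusted p reached 0.0659, with a change of at least 1.93. For Wnt5b in the same cells it reached 0.106, without tail Aspm+ library 2.

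Labelled cells against the total of their own line and site gave few changes among the members. In edgeR's quasi-likelihood test without pairing, 0 of 47 members passed in back Slc1a3+ (0.109% of all genes passed), back Aspm+ (0.0%), back K14+ (0.00572%), tail Aspm+ (0.00572%) and tail Dlx1+ cells (0.0%), and 1 passed in tail Slc1a3+ cells, where it fell (0.514% in either direction, 0.497% lower). At an unadjusted p under 0.05 there were 5, 2, 2, 3 and 10 members in the first 5, and DESeq2 and limma-voom also passed 0 there. Labelled and total libraries of the same line, site and number deviated together. The back Slc1a3 pairs did so least (r = 0.18 to 0.216). They and the tail Aspm pairs (r = 0.321) lay within the range of libraries not taken as paired (up to 0.343). A model with a term per pair, the replicate block, is given beside these values. With it 7 members passed in tail Slc1a3+ cells (2 higher, 5 lower; 1.49% of all genes, 0.137% higher and 1.35% lower), 1 lower each in tail Dlx1+ (0.463%, 0.457% lower), tail Aspm+ (0.0343%, all lower) and back Slc1a3+ cells (0.354%, 0.292% lower), and 0 in back Aspm+ (0.0%) and back K14+ cells (0.103%).

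Fzd7, a Frizzled that can signal with and without beta-catenin, passed with the pairing in 4 of the 6 populations. In tail Slc1a3+ cells it was at 13.8 and 13.7 CPM, and in their total at 62.7 and 69 CPM. The labelled cells were far below, and the change was -2.26 (SE 0.41, adjusted p = 0.00576), or -2.26 (SE 0.17, adjusted p = 1.33e-06) with the pairing. Without pairing, leaving out either labelled library or total library 2 raised the adjusted p to 0.0675 or more, with the change near the same size. Tail Aspm+ cells held 48.3 and 29.5 CPM against 88.5 and 66.7 CPM, and tail Dlx1+ cells 54.7 and 44.5 against 123 and 107 CPM. Paired changes were -1.02 (SE 0.16, adjusted p = 0.0329) and -1.22 (SE 0.16, adjusted p = 0.0021). In neither tail population did labelled and total libraries overlap, which with 2 libraries on each side adds little to the test. Back Slc1a3+ cells, libraries 1, 2 and 4, held 45.1, 25 and 16.9 CPM against 67.4, 56.3 and 25.9 CPM in the totals of the same numbers, a paired change of -0.80 (SE 0.14, adjusted p = 0.0136). Pair 4 holds the total library that stood apart, and the paired model was not run without it. The back Aspm+ and K14+ values, -0.57 (SE 0.13, adjusted p = 0.566) and -0.53 (SE 0.17, adjusted p = 1), did not pass. Fzd7 was lower in the labelled library in 14 of 14 pairs, and so was Fzd2, whereas 0.394% of all tested genes were. Fzd2 passed in no comparison. The summed bulge and germ markers, over all libraries mostly Postn and Cdh3, were also lower in the labelled library in 14 of 14 pairs. In tail Slc1a3+ cells they stood at 445 to 546 CPM against 1232 to 1259 CPM, in tail Aspm+ cells at 813 to 963 against 1114 to 1203, and in tail Dlx1+ cells at 1170.4 to 1285 against 1921 to 1927 CPM. Fibroblast marker sums and upper follicle and sebaceous sums were each lower in 12 of 14 pairs, and endothelial and Merkel cell sums in 11. Basal sums and spinous and granular sums were each higher in 13 of 14 pairs, and epidermal T cell sums in 11. The part of any of these cell types in the Fzd7 values was not tested.

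The other members that passed with the pairing in tail Slc1a3+ cells were receptors and inhibitors that fell and ligands that rose. Dkk3 was at 43.9 and 52.5 CPM against 88.9 and 112 CPM in total, a paired change of -1.06 (SE 0.15, adjusted p = 0.000645). Sfrp1 was at 63.2 and 66.7 CPM against 103 and 125 CPM, a change of -0.80 (SE 0.12, adjusted p = 0.00103). Both inhibitors were lower in both labelled libraries. Fzd3 was at 3.08 and 3.20 CPM against 9.15 and 11.8 CPM, a change of -1.73 (SE 0.31, adjusted p = 0.00575). Fzd4 was at 0.0582 and 0 CPM, which is 1 count in all, against 2.00 and 2.32 CPM (adjusted p = 0.029). The ligands went up, and their labelled and total libraries did not overlap, which with 2 libraries on each side adds little to the test. Wnt6 was at 27 and 21.1 CPM against 14.5 and 10.3 CPM, a change of 0.96 (SE 0.20, adjusted p = 0.0155). Wnt7b was at 113 and 128 CPM against 77.6 and 87.2 CPM, a change of 0.55 (SE 0.10, adjusted p = 0.00804). These 6 members did not pass without the pairing, where their adjusted p ran from 0.0616 to 0.475.

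Whether the labelled-over-total difference itself differed between tail and back was tested by an interaction. For the Slc1a3 line 0 of 47 members passed without pairing (0.0915% of all genes), with 6 at an unadjusted p under 0.05 and 0 by DESeq2 or limma-voom. With the pairing 2 passed, both lower in tail (0.474% of all genes, 0.44% lower). They were Fzd7, at -1.46 (SE 0.22, adjusted p = 0.00316), and Sfrp1, at -0.91 (SE 0.15, adjusted p = 0.00853). Both values rest on the weakly correlated back Slc1a3 pairs, including the total library that stood apart. In back the Slc1a3+ cells held 117, 126 and 87.6 CPM of Sfrp1 against 118, 109 and 79.7 CPM in total, with overlapping libraries. For the Aspm line 0 members passed with or without pairing (0.0% of all genes in both), with 3 at an unadjusted p under 0.05 without it and 0 by DESeq2 or limma-voom.

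**Figure D5:**
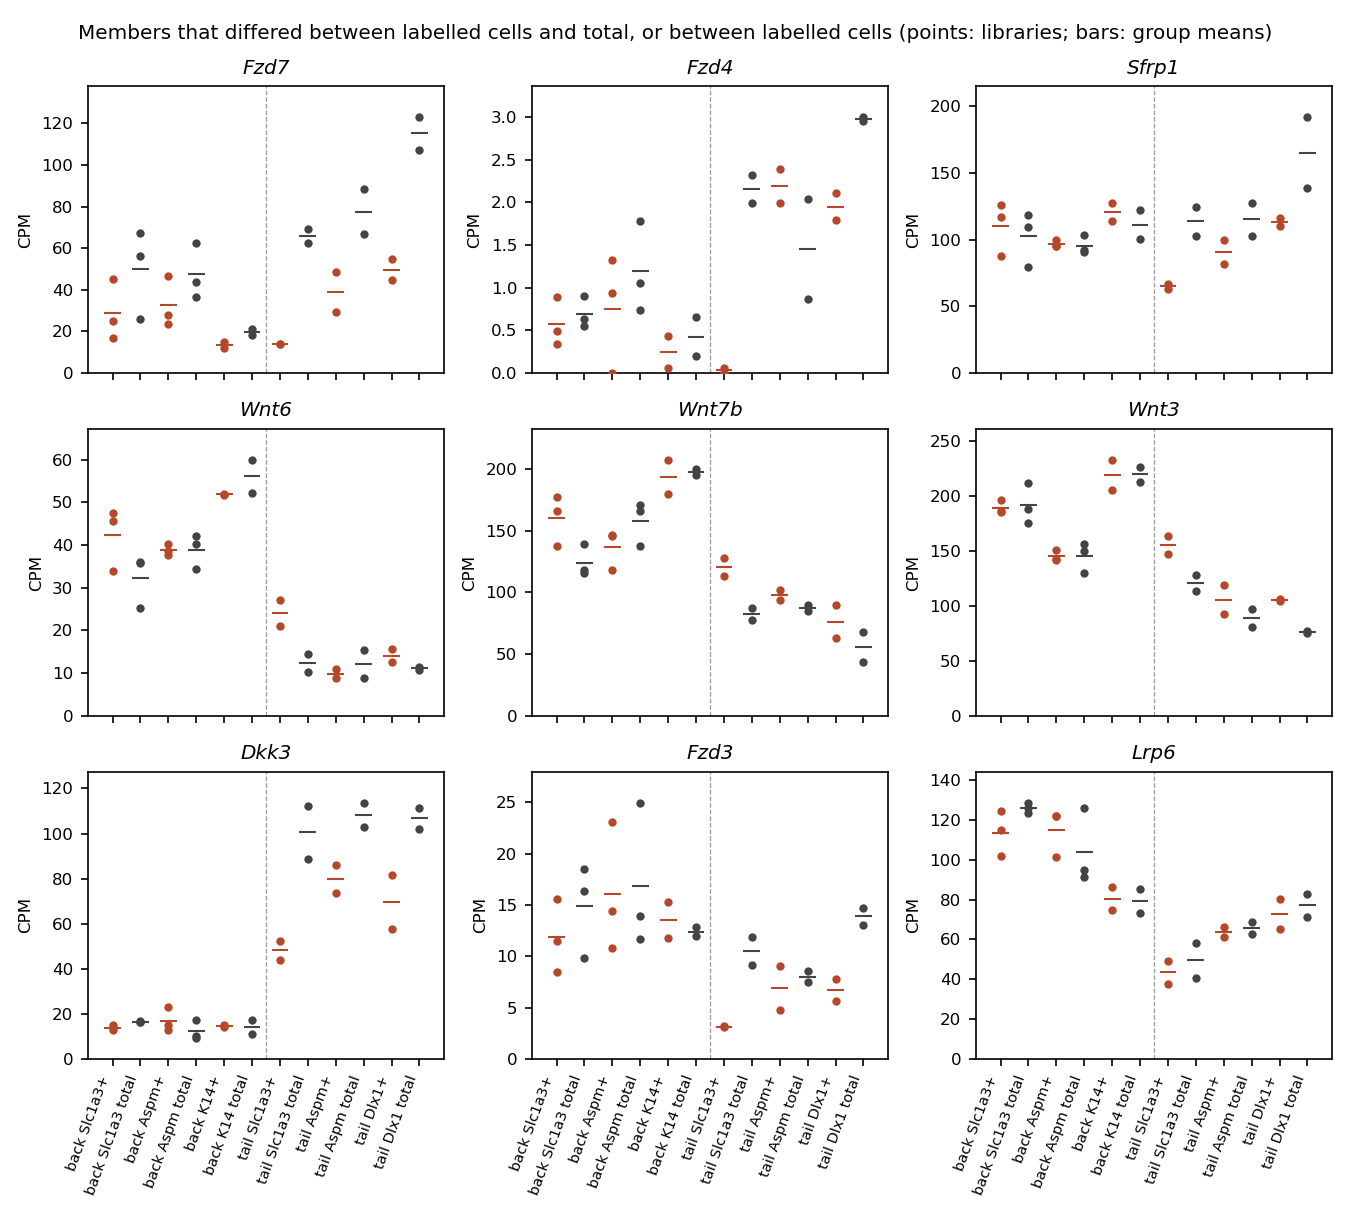
CPM of 9 members in each library (points) of the 12 groups, with a bar for the group mean, labelled cells in red and total IFE in grey, and back left of the dashed line. Fzd7 in tail Slc1a3+ cells stands at 13.7 and 13.8 CPM, below both libraries of their total, and Fzd4 is near 0 in the same cells.

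Labelled populations of the same site were then compared with each other. Back Slc1a3+ over Aspm+ cells gave 0 of 47 members (0.16% of all genes passed; 5 members at an unadjusted p under 0.05), and tail Aspm+ over Dlx1+ cells also 0 (0.0915%; 2 members). DESeq2 passed 1 and 0 members in these, and limma-voom 0 in both. Tail Slc1a3+ over Aspm+ cells gave 1 member higher (0.492% of all genes, 0.0743% higher), Wnt6, at 27 and 21.1 CPM against 8.84 and 10.9 CPM. Its change was 1.28 (SE 0.25, adjusted p = 0.0144), and it was lost without tail Slc1a3+ library 1 or without either tail Aspm+ library. Tail Slc1a3+ over Dlx1+ cells, which share the Slc1a3+ libraries with the previous comparison, gave 2 members higher and 4 lower (5.47% of all genes, 2.31% higher and 3.16% lower). The median member there was -0.36, beside -0.05 for all genes. Scaling by library totals moved that median of all genes to -0.24 and gave 0 members higher and 7 lower.

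Of the 4 lower members, Fzd7 was at 13.8 and 13.7 CPM in Slc1a3+ and 54.7 and 44.5 CPM in Dlx1+ cells, and changed by -1.85 (SE 0.41, adjusted p = 0.0127). Fzd4, a receptor that also binds Norrin, had 1 count in the Slc1a3+ pair against 100 in the Dlx1+ pair, a ratio of 65.1 (exact 95% interval 11.4 to 2595, counting error only; adjusted p = 0.0207). Lrp6 was at 37.7 and 49.1 against 65.3 and 80.4 CPM and changed by -0.75 (SE 0.19, adjusted p = 0.0242). Lrp6 is the co-receptor that Wnt proteins bind together with a Frizzled. Sfrp1 was at 63.2 and 66.7 against 110.2 and 116 CPM and changed by -0.80 (SE 0.20, adjusted p = 0.0215). The 2 higher members were the ligands Wnt3, at 163 and 147 against 105 and 107 CPM, a change of 0.55 (SE 0.14, adjusted p = 0.0274), and Wnt7b, at 113 and 128 against 90.03 and 62.9 CPM, a change of 0.66 (SE 0.20, adjusted p = 0.0499). All 6 had separate libraries in the 2 populations, which with 2 libraries on each side adds little to the test that chose them. Leaving out 1 library at a time left 0 to 3 members: 3 without Dlx1+ library 1, 0 without Dlx1+ library 2, 0 without Slc1a3+ library 1 and 1 without Slc1a3+ library 2. The bulge and germ markers, over all libraries mostly Postn and Cdh3, summed to 445 to 546 CPM in the Slc1a3+ and 1170.4 to 1285 CPM in the Dlx1+ libraries. Their part was not tested.

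The 4 back libraries of the K14 line, labelled and total together, can be set beside the 12 back libraries of the Slc1a3 and Aspm lines. This division was made after the values were seen and is described without a test. In 5 of the 47 tested members the K14 line did not overlap the others, 4 higher and 1 lower, against 4.26% of all tested genes. The R-spondin Rspo3 was at 21.9 to 26.1 CPM (median 24.2) against 9.32 to 18.3 CPM (median 15.1). The other 3 higher members were ligands. Wnt3a was at 65.5 to 80.7 CPM (median 76.9) against 44.2 to 64.7 CPM (median 54.1), Wnt6 at 51.7 to 59.96 CPM (median 52.1) against 25.2 to 47.4 CPM (median 38.1) and Wnt7b at 179.5 to 208 CPM (median 198) against 115 to 177 CPM (median 143). The co-receptor Lrp6 was lower, at 73.1 to 86.2 CPM (median 79.9) against 91.4 to 129 CPM (median 122). Line, and anything that was handled with it, cannot be told apart here.

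Among 86 further Wnt pathway genes, listed in the same way, 71 were tested. In total IFE 16 were higher and 23 lower in tail, in Slc1a3+ cells 14 and 25, and in Aspm+ cells 10 and 15, where 46.2%, 40.6% and 27.2% of all genes passed in either direction. Ror2, a co-receptor of Wnt5a, went from 0.142 CPM in back totals to 24.5 CPM in tail totals, a change of 7.73 (SE 0.64, adjusted p = 1.78e-09). Apcdd1, a membrane inhibitor of Wnt signalling, went from 403 to 64.4 CPM and changed by -2.64 (SE 0.21, adjusted p = 3.72e-10). Ctnnbip1, which blocks beta-catenin from binding TCF factors, changed by 1.77 (SE 0.11, adjusted p = 3.9e-12), Kremen2, a receptor for Dickkopf proteins, by -1.91 (SE 0.18, adjusted p = 7.92e-09), and Bmp4, a BMP ligand, by -2.84 (SE 0.20, adjusted p = 7.47e-11). Sox4, a transcription factor, changed by -2.62 (SE 0.26, adjusted p = 2.13e-08). In tail Slc1a3+ cells against their total, where 0.514% of all genes passed and 0.497% were lower, 3 of the 71 fell and 0 rose. They were Fst, which binds activins, a change of -4.14 (SE 0.58, adjusted p = 0.000332), Sostdc1, which binds BMPs and the Lrp co-receptors, a change of -1.89 (SE 0.33, adjusted p = 0.00352), and Apcdd1, a change of -1.46 (SE 0.30, adjusted p = 0.0173). Sostdc1 was also the gene that fell in back Slc1a3+ cells, at -1.51 (SE 0.27, adjusted p = 0.0142), where 0.109% of all genes passed. Its mean there was 45.6 CPM against 130.1 CPM in the total, which includes the library that stood apart. In tail Slc1a3+ over Dlx1+ cells 3 rose (Ctnnbip1, Ascl2 and Bmp4) and 4 fell (Fst, Sostdc1, Apcdd1 and Tle2), where 2.31% of all genes were higher and 3.16% lower. Of all calls in that comparison 42.2% were higher, and 12.7% with scaling by library totals.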

How the data were processed

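Poly(A) RNA from TRIzol was sequenced after a non-directional NEB Ultra II preparation, per the labels' protocols. Trim Galore 0.6.0, cutadapt, FastQC, STAR 2.7.0e, DESeq2 1.26.0 and GRCm38 (mm10) are named in the submitters' processing notes. The authors deposited 1 raw count per gene and library; the counting program, annotation and strand setting are not given in the sources used here, so reads of overlapping genes on the other strand (such as Gm2670 for Wnt5a, AU022754 for Wnt7b and Ulk4 for Ctnnb1) cannot be told apart. All 55536 identifiers matched GENCODE M21, which gave symbols and exon lengths, and 33440 had a count.

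In edgeR 4.0.16 (R 4.3.3), counts were filtered by filterByExpr (minimum count 10, with 17493 genes left) and then scaled by TMM. They were fitted by 1 robust quasi-likelihood model with a mean per group (16 residual degrees of freedom, biological coefficient of variation 0.280). Benjamini-Hochberg adjustment ran over all 17493 genes in each of 15 comparisons. Members, lists and comparisons were chosen with earlier results of these data known. Promoters shown were likewise chosen among members that passed. Members that passed, and the 2 highest per role by CPM per kb, are described with their libraries, and the others by ranges. Other Wnt genes are named, in order of p, from the first 6 of a comparison. Marker lists (11) are given as whole lists.

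Labelled and total libraries of the same line, site and number deviated together over 10376 genes (r = 0.18 to 0.689), which the labels do not state. The back Slc1a3 pairs were the weakest (r = 0.18 to 0.216). Where a group has 2 libraries, centring gives both pairs 1 value, so the 14 pairs hold 10 separate values. Back and tail libraries (8 pairs, r = -0.059 to 0.321) and labelled cells of different lines (13 pairs, r = -0.113 to 0.343) were not taken as paired. Intervals on ratios are exact 95% intervals of summed counts. On simulated counts the model recovered 2, 26, 41 and 48 of 50 genes changed 1.5-, 2-, 4- and 8-fold for Slc1a3+ cells between sites, and 2, 21, 40 and 46 for tail Slc1a3+ cells against total. All genes changed had a mean of at least 50 counts in a library of median size. Far fewer genes were changed than passed between sites in the data. The recovery therefore does not describe members with fewer counts, nor the real site comparison. Alternatives were other scalings, no filter, DESeq2 1.42.0, limma-voom (limma 3.58.1), other sample sets, the replicate block and leaving out each library.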

Additional observations from a re-analysis of the deposited data

How the results depend on the processing

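Of 1264 alternative values of the 86 member changes that passed, 1119 kept the call, 145 lost it and 0 changed direction. 51 changes kept it in every alternative run. Numbers of members passing that moved by more than 1.5 times were as follows. For tail Slc1a3+ cells over total (1 in the reported model), 2 passed with library totals, 5 without the low-count filter, 2 with limma-voom, 6 with DESeq2, 4 without the back Slc1a3 total library of few genes and 7 with the replicate block. For tail Slc1a3+ over Aspm+ cells (1 reported), 2 passed with library totals, 3 without the filter, 0 with limma-voom, 5 with DESeq2, 5 with only the groups compared, 3 without the library of few genes and 2 with the replicate block. Without the filter 1 member passed in back Slc1a3+, tail Aspm+ and tail Dlx1+ cells over total and 2 in the Slc1a3 interaction, and the replicate block gave 1, 1, 1 and 2 there. DESeq2 passed 1 member in back Slc1a3+ over Aspm+ cells. The causes of these moves were not tested, except that the block and the removal of a library change the number of parameters or libraries. Numbers shared by back and tail or by different lines are not taken to pair libraries. As a replicate block they gave 30 members in total IFE between sites, 30 in Slc1a3+ and 26 in Aspm+ cells, and 7 in tail Slc1a3+ over Dlx1+ cells. Apart from the values given here, the replicate block changed no count.

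Leaving out 1 library at a time left 24 to 30 members in total IFE between sites, 21 to 27 in Slc1a3+ cells and 14 to 24 in Aspm+ cells, with 14 without either tail Aspm+ library (22 reported). It left 0 to 1 in tail Slc1a3+ cells over total and over Aspm+ cells, 0 to 3 over Dlx1+ cells (6 reported) and 0 in every other comparison. Where this leaves 1 library in a group, that library is assumed to vary like the other groups. Library totals moved the share of higher genes among all genes that passed from 46.8% to 34.4% in Slc1a3+ cells between sites and from 42.2% to 12.7% in tail Slc1a3+ over Dlx1+ cells, where Wnt3 and Wnt7b were lost. Taking all 3 lines of each site gave 35 members in total IFE (17 higher, 18 lower). Depth limits statements on Wnt2, Wnt9a, Fzd4, Wif1, Notum and Lef1, which rest on few counts.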
